A study of Mus musculus with 34 samples.

Results

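The Slc22 genes encode membrane transporters that carry small charged molecules across the cell surface: organic cations, organic anions and the zwitterion carnitine. In liver they sit mainly on hepatocytes, where they take up drugs, metabolites and nutrients from blood, and several are known to be more abundant in kidney than in liver. Expression of 7 of them was followed here in mouse liver tumors driven by MYC and in livers that carry the MYC transgene: Slc22a3, Slc22a5, Slc22a7, Slc22a8, Slc22a18, Slc22a23 and Slc22a30. They were chosen by symbol, with earlier measured values of the same 34 RNA samples in view, so their levels and group differences are given as a description and the p-values only place each gene in a fit over all genes. All 7 had a row in the mixed-strain table (46528 genes), 5 in the FVB table (16140 genes, without Slc22a3 and Slc22a7) and 6 in the Rag1-/- table (14074 genes, without Slc22a8).

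The tumor mice carried LAP-tta and TRE-MYC, a liver-driven tetracycline switch that turns on MYC once doxycycline is withdrawn, and tumors were collected at death. WT tumors had floxed Arid1a (Arid1aflfl) and no Cre. Het tumors had the genotype Arid1afl/+ with Alb-cre, which is expressed in hepatocytes, and Homo tumors had Arid1afl/fl with Alb-cre. The Arid1a product binds DNA as part of SWI/SNF, a complex that moves nucleosomes. On the mixed background (C57/B6, 129, FVB) there were 8 WT tumors and 8 Het tumors, at about 90 days of age. The FVB background gave 4 WT tumors at 55 days, 4 Het tumors at 70 days and 4 Homo tumors at 100 days. The remaining mice were Rag1-/- FVB animals of 42 days with the LAP-MYC transgenes and no Arid1a deletion, and liver tissue followed 14 days after adenovirus injection. The virus carried human ARID1A in 3 mice (ad-ARID1A) and Cre in the other 3 (ad-Cre). Age and Arid1a genotype in FVB cannot be told apart, nor can Cre and Arid1a loss against WT, nor can ARID1A and the absence of Cre in the Rag1-/- livers. Nothing in the labels says that each sample came from its own mouse, so the spread between samples may be partly technical.

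Libraries held 2.28 to 5.28 M reads in the mixed set, 6.64 to 12 in the FVB set and 8.72 to 10.6 in the Rag1-/- set, as read from the step size of low values. Arid1a itself lay at 250 to 330 CPM (reads scaled to a common library total) in mixed Het tumors. Mixed WT tumors had 314 to 490 CPM. Its FVB groups overlapped, at 212 to 311 CPM in WT, 185 to 292 in Het and 172 to 256 in Homo. FVB Het 4 held the highest Het value, 292 CPM, within the WT range. In the livers Arid1a had 115, 116 and 114 CPM after ad-Cre and 149, 125 and 111 after ad-ARID1A. Those groups overlapped too, so the values do not check the liver labels. These are whole-gene values and do not test the floxed exon. Mixed WT 2, mixed Het 5, FVB WT 1 and FVB WT 2 stood apart from the other libraries of their tables on the leading principal components, so the member differences from WT in the tumors are also given without them. Mixed Het 6 also lay far out on the first component (−81.9, against 90.7 for mixed WT 2) and was kept in those fits. The source label of the Rag1-/- samples says tumor and their tissue label says liver. The summed CPM of 7 hepatocyte markers was 66400 to 81300 in those livers and 2600 to 13100 in all tumors. The summed CPM of 6 proliferation markers was 23.6 to 61.2 in those livers and 1090 to 2220 in the tumors. The 3 tables were normalized separately, and levels set across them carry no test.

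Promoter sequence was matched by symbol for 6 of the 7 members (RefSeq, build GRCm38.p6; Slc22a7 was not matched). Those of Slc22a8, Slc22a30 and Slc22a5 are shown, since of the matched members these had the smallest unadjusted p in any comparison. Each runs from 250 bases before to 50 bases after the annotated start, on the gene's own strand, with the base at the start in capitals. The Slc22a8 window lies wholly within the gene's span in GENCODE M21 (8591254 to 8611835), downstream of the first base of that span. Its sequence values therefore describe the RefSeq start only.
Slc22a8, chr19:8592932-8593231, plus strand: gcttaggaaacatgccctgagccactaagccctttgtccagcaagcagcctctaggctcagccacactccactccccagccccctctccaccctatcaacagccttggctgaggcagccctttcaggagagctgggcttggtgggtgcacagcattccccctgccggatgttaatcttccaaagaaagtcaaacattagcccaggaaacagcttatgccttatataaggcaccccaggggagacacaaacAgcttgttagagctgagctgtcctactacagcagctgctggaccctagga
Slc22a30, chr19:8405056-8405355, minus strand: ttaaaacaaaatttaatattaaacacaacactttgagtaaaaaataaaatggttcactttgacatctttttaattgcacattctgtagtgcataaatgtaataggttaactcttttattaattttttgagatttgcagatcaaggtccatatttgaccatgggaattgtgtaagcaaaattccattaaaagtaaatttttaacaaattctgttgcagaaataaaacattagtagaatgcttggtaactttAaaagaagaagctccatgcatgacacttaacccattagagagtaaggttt
Slc22a5, chr11:53891654-53891953, minus strand: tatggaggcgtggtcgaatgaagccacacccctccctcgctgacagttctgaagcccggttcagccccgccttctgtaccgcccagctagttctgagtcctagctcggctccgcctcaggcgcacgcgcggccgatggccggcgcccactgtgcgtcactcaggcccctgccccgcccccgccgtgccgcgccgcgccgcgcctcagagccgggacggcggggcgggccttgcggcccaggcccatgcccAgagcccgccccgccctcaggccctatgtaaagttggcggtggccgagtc
Matches were sought on both strands for CACGTG (an E-box, the letters MYC and MAX bind), AGGTCA (part of many nuclear receptor sites) and TATAAA (a core promoter element). None of the 6 promoters held any of these exact strings in this window. Variant forms were not sought, so a lack of such elements is not shown. The Slc22a8 sequence, for example, holds TATATAA shortly before its start. Among 32851 promoters of that length, 7.15% held CACGTG, 16.3% AGGTCA and 13.6% TATAAA. The promoters differed in base composition, at 27.7% G or C for Slc22a30, 55% for Slc22a8 and 72.7% for Slc22a5, with a median of 52.7% over all promoters. No binding was measured.

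CPM is not adjusted for gene length, so the order of the members was read from CPM per kb of merged exon (GENCODE M21). In the ad-Cre livers Slc22a30 was first with a median of 80.3 CPM per kb, followed by Slc22a7 at 29, Slc22a18 at 22.1, Slc22a23 at 20.8, Slc22a5 at 2.52 and Slc22a3 at 0.725. Slc22a18 (21.6 to 22.4) and Slc22a23 (20.5 to 23.3) overlapped in range there, while the other neighbours in that order did not. In mixed WT tumors the order was led by Slc22a23 at 18 and Slc22a18 at 16.5. Slc22a8 followed at 4.76 and Slc22a5 at 3.17, and Slc22a7 (0.339), Slc22a30 (0.142) and Slc22a3 (0.0907) came last, and each overlapped in range with its neighbours in that order. FVB WT tumors had Slc22a23 at 7.54, Slc22a18 at 6.07, Slc22a5 at 3.19, Slc22a30 at 1.92 and Slc22a8 at 1.01, with overlap in range between Slc22a23 and Slc22a18 and of Slc22a30 with Slc22a5 and Slc22a8. The gene with the highest level in the livers was thus among the 3 lowest in mixed WT tumors, while Slc22a23 and Slc22a18 were prominent in every set.

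**Figure D1:**
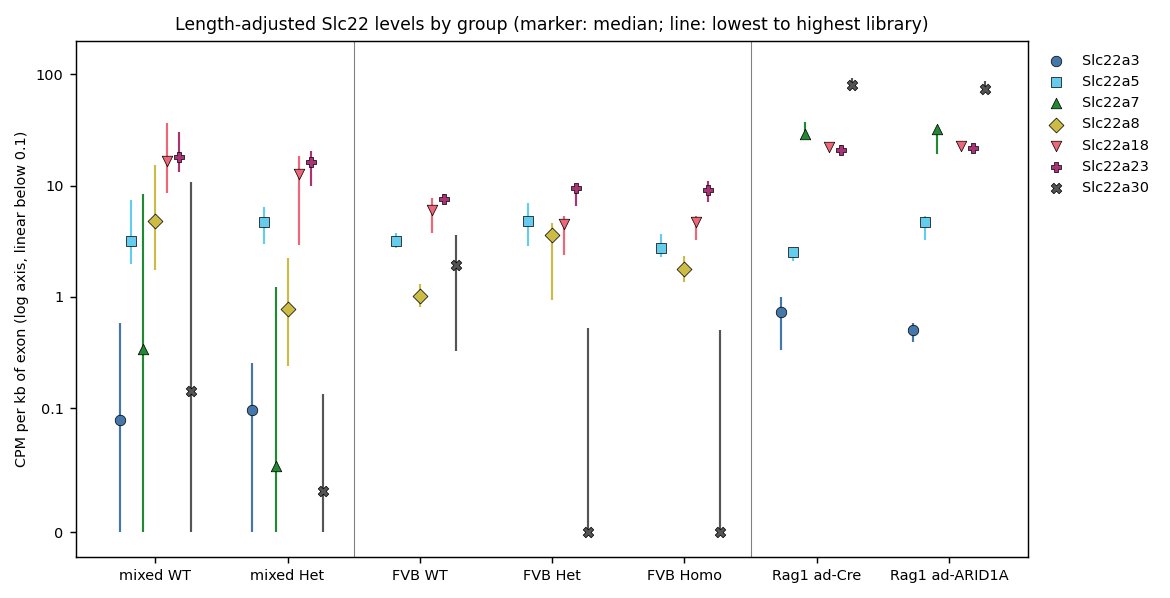
CPM per kb of merged exon (log axis, linear below 0.1) for each member in the 7 groups, with the marker at the median and the line from the lowest to the highest library. Grey lines part the 3 separately normalized tables. Slc22a30 is highest in both groups of livers and at or near 0 in most tumors, whereas Slc22a18 and Slc22a23 keep a high place in all groups.

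Slc22a8 encodes OAT3, an organic anion transporter best known from the kidney's uptake of drugs and metabolites from blood. The gene lies on chromosome 19 at 8591254 to 8611835 (plus strand, GRCm38). In mixed WT tumors its level ran from 6.78 to 60.4 CPM with a median of 18.6 (24 to 216 reads), and in mixed Het tumors from 0.932 to 8.85 CPM with a median of 3.07 (3 to 35 reads). Thus 6 of 8 Het tumors lay below every WT tumor and 7 of 8 WT tumors above every Het tumor, and WT 3 at 6.78 CPM lay within the Het range. On the log2(CPM + 0.5) scale the means were 1.84 ± 0.97 (SD, n = 8) in Het and 4.35 ± 0.91 (SD, n = 8) in WT. The difference was −2.52 ± 0.43 (SE; 95% interval −3.42 to −1.61; limma with Benjamini-Hochberg adjustment over 17552 genes, adjusted p = 0.0256), a level 5.72-fold lower in Het.

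Slc22a8 was the 1 member of 7 past an adjusted p of 0.05 in the mixed set, where 0.16% of all genes passed (28, of which 7 were higher and 21 lower in Het). No member separated the groups fully, against 0.137% of all genes. Since the members were picked with these values known, nothing is read from that count. The call was near its threshold: the adjusted p was 0.0564 without Het 1, 0.0623 without Het 6, 0.0529 without WT 6, 0.0592 without WT 8 and 0.0628 without both WT 2 and Het 5, where the difference was −2.33. The difference itself stayed between −2.73 and −2.29 when any single library was left out. Markers of several cell types also had lower means in mixed Het tumors. All 7 hepatocyte markers with a row had lower means in Het, with a summed level of 2600 to 5960 CPM against 4970 to 10400 in WT, and none was at 0 in every library of a group (without WT 2 and Het 5, 6 of 7 had lower means). All 6 Kupffer and macrophage markers had lower means, with 207 to 460 CPM summed against 265 to 894. Of 6 stellate and fibroblast markers 5 had lower means (161 to 821 against 159 to 1080), as did all 5 neutrophil markers (5.5 to 28.5 against 10.2 to 109). Means were also lower for 4 of 6 endothelial and 6 of 6 erythroid markers. They were higher for 6 of 6 proliferation, 3 of 5 biliary and 3 of 4 tested T and B cell markers. Without WT 2 and Het 5 these counts were 6 of 6, 1 of 5 and 2 of 4, so the biliary direction rested on those libraries. No marker of these lists passed the adjusted p, and their part in the Slc22a8 difference was not tested. In such bulk tissue, fewer cells of a type and less RNA per cell cannot be told apart.

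In FVB tumors the Slc22a8 values lay the other way. WT tumors had 3.46, 3.16, 5.13 and 4.41 CPM, Het tumors 17.9, 16.3, 12 and 3.68, and Homo tumors 8.06, 5.35, 5.74 and 9.13. Of the Het tumors 3 were above every WT tumor and Het 4 was within the WT range, while all 4 Homo tumors were above all 4 WT tumors. The difference of Het from WT was 1.43 ± 0.42 on the log2 CPM scale (SE; limma, adjusted p = 0.157), that of Homo from WT 0.80 ± 0.42 (adjusted p = 0.561), and that of Homo from Het −0.63 ± 0.42 (adjusted p = 1). Without WT 1 and WT 2 the differences from WT were 1.16 for Het and 0.53 for Homo. The shared WT tumors enter both of the first 2 differences, and the shared Het tumors enter the first and the last. Without Het 4 the difference of Het from WT was 1.94 with an adjusted p of 0.0175. Arid1a was at 292 CPM in Het 4 and at 223, 186 and 185 CPM in Het 1, Het 2 and Het 3. Its part in the Slc22a8 values was not tested. Slc22a8 was thus 5.72-fold lower in Het than in WT on the mixed background and 2.69-fold higher on FVB, in separate tables, at other ages and with the FVB value short of the threshold. The difference between those 2 contrasts was not tested.

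**Figure D2:**
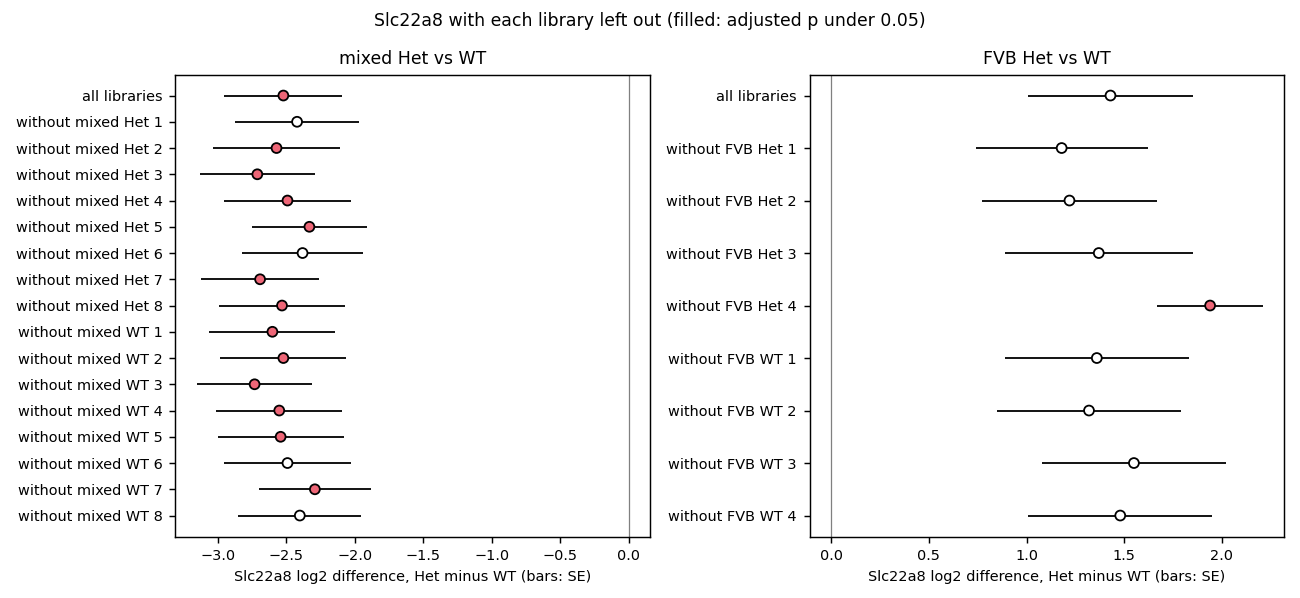
Slc22a8 log2 difference, Het minus WT, with all libraries and with each library left out in turn, in the mixed set (left) and the FVB set (right). Points are differences, bars are SE and filled points have an adjusted p under 0.05. The mixed values stay between −2.73 and −2.29 with 4 open points, and the FVB values are between 1.18 and 1.94 with 1 filled point.

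Markers of other cells also differed in means between the FVB groups in which Slc22a8, Slc22a5 and Slc22a30 differed. In Het against WT lower means were found for 5 of 6 Kupffer and macrophage markers (summed level 179 to 244 CPM in Het, 185 to 352 in WT), 5 of 6 stellate and fibroblast markers (414 to 575, 414 to 688), 5 of 6 endothelial markers (78 to 140, 104 to 236), 4 of 5 neutrophil markers (0 to 1.19, 2.53 to 59.5) and 6 of 6 erythroid markers (23.3 to 26.2, 21.2 to 497). Of 7 hepatocyte markers 4 had lower means (4510 to 9810, 6870 to 13100). Lrat, an enzyme of vitamin A storage in stellate cells, was the 1 marker of these lists to pass, and it fell by 2.50 ± 0.31 (limma, adjusted p = 0.0234). The neutrophil markers S100a8, S100a9, Ltf and Retnlg were listed at 0 in all 4 Het tumors, and Retnlg also in all 4 WT tumors.

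Homo against WT had lower means for 5 of 6 Kupffer and macrophage markers (158 to 243 CPM in Homo), 6 of 6 stellate and fibroblast (104 to 648), 5 of 6 endothelial (84.3 to 152), 3 of 5 neutrophil (1.8 to 100) and 6 of 6 erythroid markers (27.8 to 101), and for 2 of 7 hepatocyte markers (6940 to 12000), and none passed. Several of these counts rested on WT 1 and WT 2. Without them, the counts in the same order from Kupffer to erythroid were 3 of 6, 4 of 6, 4 of 6, 3 of 5 and 5 of 6 in Het and 3 of 6, 6 of 6, 3 of 6, 0 of 5 and 0 of 6 in Homo, and Lrat did not pass. The part of these cells in the member values was not tested.

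Because Slc22a8 is known as a kidney gene, a list of 5 kidney tubule markers was set beside it. Only Lrp2, the endocytic receptor megalin, and Cdh16, a kidney cadherin, had rows in the FVB table, and their summed level was 11.2 to 70.3 CPM in WT, 108 to 306 in Het and 16.1 to 272 in Homo. Lrp2 differed by 3.12 ± 0.74 between FVB Het and WT (limma, adjusted p = 0.0986) without overlap of the groups, as 6.88% of all genes did. Kap was listed at 0 in all mixed WT tumors, and the list as a whole spanned 21.9 to 231 CPM in mixed WT and 33.7 to 363 in mixed Het. The part of these genes in the Slc22a8 values was not tested. Slc22a6, which encodes the related transporter OAT1 and is the next member of the family downstream on the same strand, had 0.84 to 4.78 CPM in mixed WT and 0.625 to 5.5 in mixed Het. Its difference was −0.21 ± 0.39 in the mixed set (limma, adjusted p = 0.824) and 0.09 ± 0.78 between FVB Het and WT (adjusted p = 0.978).

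Slc22a30 belongs to a cluster of anion transporter genes on chromosome 19, at 8335371 to 8405111 (minus strand), 186 kb before Slc22a8. Its close relatives Slc22a26 to Slc22a29 lie in the same cluster, and the sources used here do not say how reads that fit several of them were counted, so its level is uncertain to that extent. In the livers it was abundant, at 313, 256 and 271 CPM in the ad-Cre group and 290, 246 and 251 in the ad-ARID1A group (2220 to 3052 reads), with overlapping groups. In FVB WT tumors it had 1.1, 12.2, 9.06 and 3.84 CPM. It was listed at 0, which in that table stands for at most 1 CPM, in 3 of 4 Het and 3 of 4 Homo tumors, with 1.78 CPM in Het 4 and 1.71 in Homo 4. Those single values exceeded the lowest WT tumor, so the groups overlapped.

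On the floored log2 scale the Slc22a30 difference was −2.01 ± 0.58 for FVB Het from WT (SE; limma, adjusted p = 0.149) and −2.03 ± 0.58 for Homo from WT (adjusted p = 0.249). The floor makes these smaller than the change in RNA. Single WT tumors moved these values both ways. Without WT 1, the lowest, the differences were −2.70 and −2.72 with adjusted p of 0.0441 for Het and 0.0247 for Homo (limma). Without WT 2, the highest, they were −1.55 and −1.56 (adjusted p = 0.415 and 0.709), and without both they were −2.35 and −2.37 (adjusted p = 0.122 and 0.117). In the mixed set 1 library, WT 2, had 36 CPM (82 reads), while the other 7 WT tumors lay between 0 and 1.87 CPM and the 8 Het tumors between 0 and 0.454 (0 to 2 reads). A value of 0 in a mixed library allows up to 3 reads, or 0.568 to 1.31 CPM depending on depth, a limit that covers counting error only, so most of these tumors cannot be ordered. The mixed difference was −1.24 ± 0.65 (limma, adjusted p = 0.361), −0.58 without WT 2 and −0.54 without WT 2 and Het 5.

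Slc22a7 encodes OAT2, an anion transporter of the hepatocyte's blood-facing membrane that also carries nucleotides and their bases. It lies on chromosome 17 at 46432183 to 46438457 (minus strand). The livers had 61, 60.5 and 78.2 CPM after ad-Cre and 70, 40.8 and 67.6 after ad-ARID1A, a difference of −0.19 ± 0.20 on the log2 scale (SE; limma, adjusted p = 0.733). In mixed WT tumors the level ran from 0 to 17.5 CPM with a median of 0.713, and in mixed Het tumors from 0 to 2.56 with a median of 0.112. WT 2 at 17.5 and WT 5 at 11.6 stood above all other tumors, and 2 WT and 4 Het tumors were at 0. The difference of −1.02 ± 0.72 (adjusted p = 0.497) became −0.54 without WT 2 and −0.59 without WT 2 and Het 5.

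The same mixed WT 2 tumor also had the highest Slc22a5 and Slc22a18 levels of its group, at 22.8 and 61.7 CPM, and the highest Slc22a3 level, at 2.63. Its summed hepatocyte markers (10400 CPM), Kupffer and macrophage markers (894) and stellate and fibroblast markers (1080) were the highest of the 16 mixed tumors, and its proliferation markers (1090) the lowest. The part of those cells in its transporter values was not tested.

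**Figure D3:**
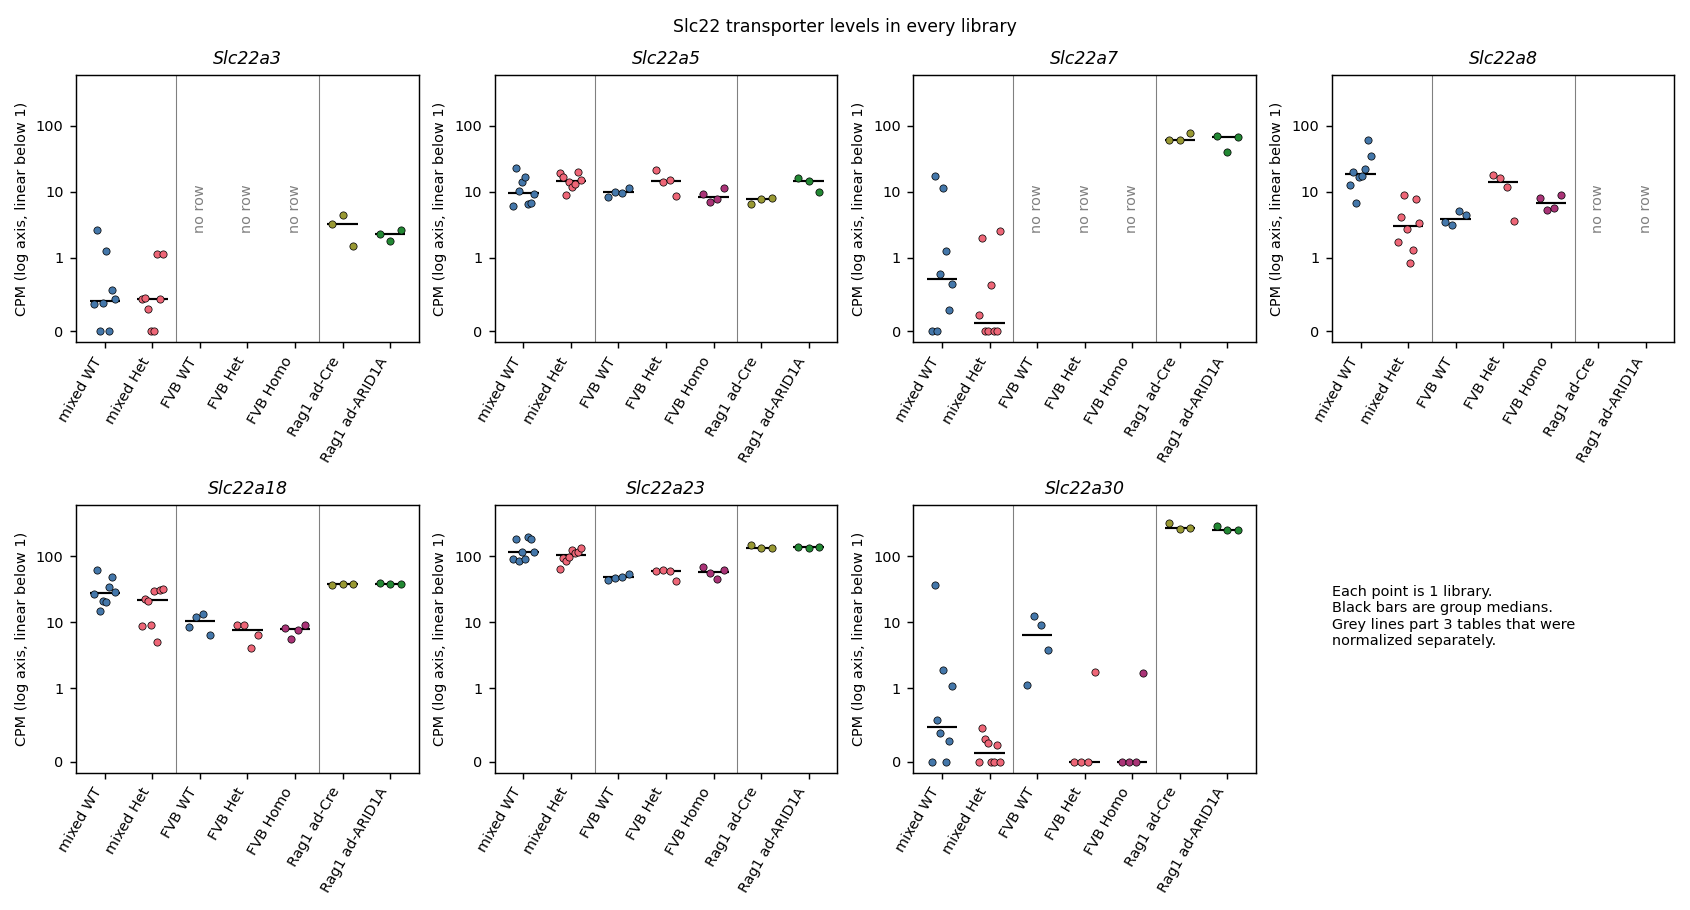
CPM of the 7 members in each of the 34 libraries (log axis, linear below 1), by group, with black bars at group medians and grey lines between tables. Slc22a8 is lower in mixed Het than WT tumors and higher in most FVB Het and in FVB Homo than WT tumors, and Slc22a30 and Slc22a7 sit far above their tumor levels in the livers.

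Slc22a5 encodes OCTN2, the high-affinity carnitine transporter, which supplies the carnitine needed to carry long-chain fatty acids into mitochondria. It lies on chromosome 11 at 53864542 to 53891660 (minus strand). In the livers it had 6.45, 7.73 and 8.17 CPM after ad-Cre and 16.2, 14.5 and 9.92 after ad-ARID1A. All 3 ad-ARID1A livers lay above all 3 ad-Cre livers, by 0.84 ± 0.22 on the log2 scale (SE; limma, adjusted p = 0.164) or 1.79-fold, and the difference ran from 0.69 to 1.05 with any single liver left out. Full separation of the groups was common in that table, in 17.4% of all genes, and 0.32% of genes passed the adjusted p (45, of which 39 were higher after ad-ARID1A; 25 of 35 when libraries were centred on the median gene). None of the 6 members there passed (limma; 1 at an unadjusted p under 0.05), and Slc22a5 was the 1 member without overlap. Of those separated genes 1953 of 2442 were higher after ad-ARID1A. Markers of other cells differed alongside: all 6 stellate and fibroblast markers had higher means after ad-ARID1A (median 0.58; summed level 454 to 537 CPM, against 269 to 491 after ad-Cre), as did all 6 endothelial markers (median 0.22; 325 to 355 against 281 to 322). Centring on the median gene left 6 and 4 of them higher. Of 7 hepatocyte markers 6 had lower means (median −0.12; 66400 to 75900 against 74500 to 81300), and 7 of 7 when centred. None of these markers passed or was at 0 in every library of a group, and their part in the Slc22a5 difference was not tested.

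In FVB tumors Slc22a5 had 8.46, 10.1, 9.51 and 11.5 CPM in WT, 21.4, 14.3, 15.1 and 8.75 in Het and 9.19, 6.96, 7.73 and 11.3 in Homo. Het 1, Het 2 and Het 3 were above every WT tumor, and Het 4 was again the low Het tumor. The differences were 0.53 ± 0.26 for Het from WT, −0.18 ± 0.26 for Homo from WT and −0.72 ± 0.26 for Homo from Het (limma, adjusted p = 0.374, 0.867 and 1), and the first 2 were 0.44 and −0.27 without WT 1 and WT 2. In the mixed set WT tumors ran from 6.06 to 22.8 CPM (median 9.77) and Het tumors from 9.13 to 19.8 (median 14.6), a difference of 0.46 ± 0.26 (adjusted p = 0.399) with wide overlap. It was 0.61 without WT 2, the highest WT tumor, and 0.65 without WT 2 and Het 5. With all libraries Slc22a5 was thus the 1 member with a higher mean in Het than in WT tumors in the mixed set, short of the threshold.

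Other genes of carnitine handling were counted from a list of 10 that spans the transferases, the mitochondrial carrier and carnitine synthesis. After ad-ARID1A 7 of 8 had higher means (median difference 0.20, all genes 0.09, and likewise 7 of 8 when centred on the median gene) and 3 of 8 separated the groups, where 17.4% of all genes did: Crat, carnitine acetyltransferase, by 0.51 ± 0.15, Slc25a20, the mitochondrial carnitine carrier, by 0.42 ± 0.11, and Crot, the peroxisomal octanoyltransferase, by 0.30 ± 0.11. In FVB, 7 of 9 had higher means in Het than in WT (median 0.28, all genes 0.02), led by Slc25a20 at 0.58 ± 0.21, and 9 of 9 did without WT 1 and WT 2. Homo against WT had 4 higher and 5 lower means (median −0.15, all genes −0.02), or 5 and 4 without WT 1 and WT 2. In Homo 8 of 9 had lower means than in Het (median −0.26, all genes −0.04, and 7 of 9 when centred), a count that shares its Het tumors with that of Het against WT. Cpt1a, the entry enzyme of mitochondrial fatty acid oxidation, differed by −0.47 ± 0.13 there without overlap, as 2.67% of all genes did. In the mixed set 5 had higher and 4 lower means (median 0.02), or 7 and 2 without WT 2 and Het 5. No gene of the list passed an adjusted p of 0.05 in any of the 5 comparisons (limma).

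Slc22a3 encodes OCT3, a low-affinity carrier of organic cations such as monoamines, and lies in the imprinted Igf2r cluster on chromosome 17 at 12418960 to 12507704 (minus strand). Its exons share 420 bases, 9.31% of their length, with Plg, the abundant plasminogen gene on the other strand, and the sources used here do not say whether counting used strand. Of the 6 members with a row for the livers it was the least abundant there. It had 3.27, 4.53 and 1.49 CPM in ad-Cre livers and 2.28, 1.78 and 2.66 in ad-ARID1A livers (13 to 48 reads). The difference was −0.35 ± 0.42 (limma, adjusted p = 0.775). In mixed tumors 0 to 6 reads per library (at most 2.63 CPM) leave no order to read, and its difference of −0.15 ± 0.37 (adjusted p = 0.868) was 0.08 without WT 2 and 0.21 without WT 2 and Het 5. The neighbouring Igf2r, a receptor that clears IGF2, differed by −0.13 ± 0.10 in the mixed set and Airn, the antisense RNA of that cluster, by −0.15 ± 0.25, and neither passed in any comparison.

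Slc22a18 is an orphan member of the family from the imprinted domain around Kcnq1ot1 on chromosome 7, at 143473736 to 143499334 (plus strand). In the livers it hardly varied, at 36.8, 37.5 and 38.1 CPM after ad-Cre and 38.9, 37.3 and 38.3 after ad-ARID1A, a difference of 0.03 ± 0.09 (95% interval −0.18 to 0.24; limma, adjusted p = 0.937). Mixed WT tumors ran from 14.7 to 61.7 CPM (median 28) and mixed Het tumors from 4.94 to 31.7 (median 21.7). Het 1, Het 4 and Het 6 at 8.65, 9.2 and 4.94 CPM lay below every WT tumor. The mixed difference was −0.79 ± 0.38 (limma, adjusted p = 0.327), −0.63 without WT 2, −0.55 without Het 6 and −0.75 without WT 2 and Het 5. FVB WT tumors had 6.36 to 13.3 CPM, Het 4.06 to 9.0 and Homo 5.58 to 9.13, with overlap throughout and differences from WT of −0.51 ± 0.31 (adjusted p = 0.502) and −0.35 ± 0.31 (adjusted p = 0.766), or −0.44 and −0.28 without WT 1 and WT 2.

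Of 9 genes of that imprinted domain, none passed in any comparison. In the mixed set Cd81, a membrane tetraspanin, differed by −0.38 ± 0.14 (limma, adjusted p = 0.215) and Cdkn1c, a cell cycle inhibitor, by −0.40 ± 0.20 (adjusted p = 0.351), and 4 of 8 tested genes had lower means (6 of 8 without WT 2 and Het 5). All 7 with a row in FVB had lower means in Het and in Homo than in WT, with medians of −0.10 and −0.04, but centring on the median gene left 6 and 2 of them lower, and leaving out WT 1 and WT 2 left 4 and 5.

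Slc22a23 is another orphan member, on chromosome 13 at 34179158 to 34345182 (minus strand). It was the steadiest of the 7 in the mixed tumors, where its highest library was 2.29 times its lowest in WT and 2.08 times in Het. WT ran from 84 to 192 CPM (median 115) and Het from 63.4 to 132 (median 104), a difference of −0.31 ± 0.20 (limma, adjusted p = 0.448), and −0.28 without WT 2 and Het 5. FVB WT tumors had 43.7 to 53.8 CPM, Het 41.9 to 62.2 and Homo 45.9 to 69.6. Het and Homo tumors overlapped with WT and differed by 0.20 ± 0.16 and 0.25 ± 0.16 (adjusted p = 0.633 and 0.643), or 0.11 and 0.16 without WT 1 and WT 2. The livers had 149, 133 and 131 CPM after ad-Cre and 140, 135 and 138 after ad-ARID1A, a difference of 0.01 ± 0.08 on the log2 scale (95% interval −0.18 to 0.19; adjusted p = 0.983).

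**Figure D4:**
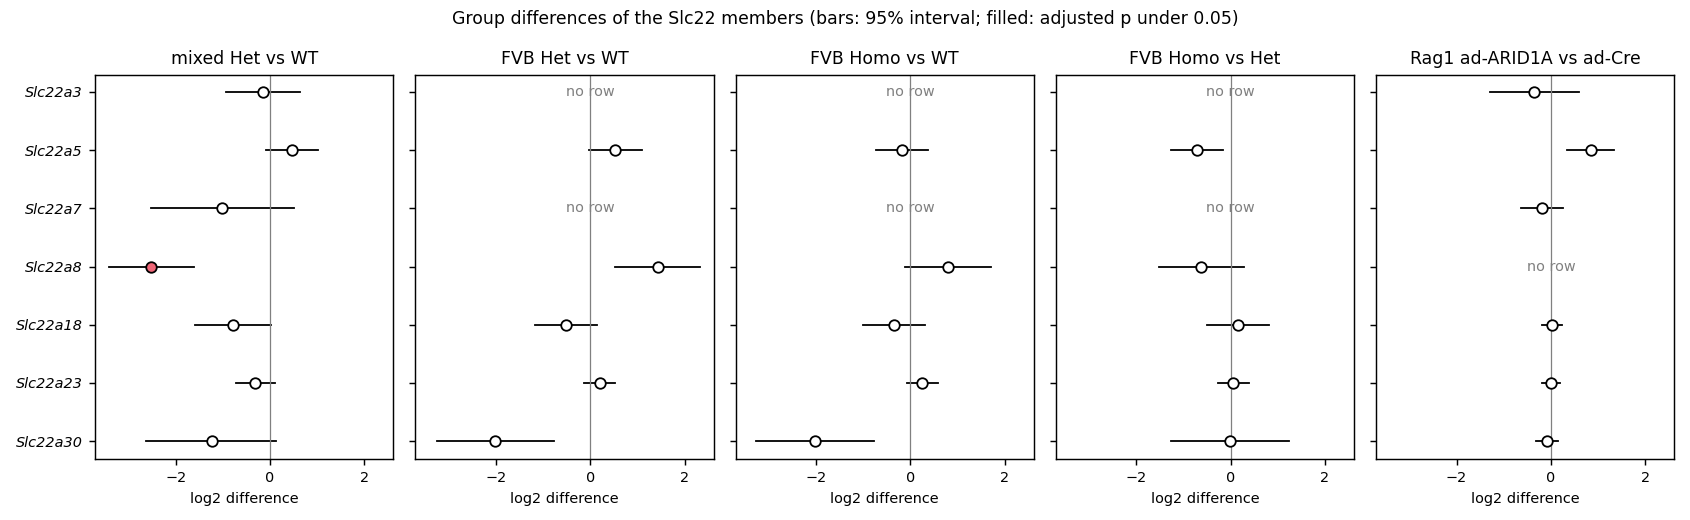
Log2 difference of each member in the 5 comparisons (first named group minus second), with bars for the 95% interval and a filled point for an adjusted p under 0.05. The filled point is Slc22a8 in the mixed set at −2.52, and its FVB points lie at 1.43, 0.80 and −0.63.

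Side by side, 6 of 7 members had lower means in mixed Het than WT (median −0.79, all genes 0.05), 2 of 5 in FVB Het (median 0.20, all genes 0.02), 3 of 5 in FVB Homo against WT (median −0.18, all genes −0.02) and 3 of 6 after ad-ARID1A (median −0.04, all genes 0.09). Without WT 2 and Het 5 it was 5 of 7 in the mixed set, and without FVB WT 1 and WT 2 it was unchanged in FVB at 2 of 5 and 3 of 5. Centring the livers on their median gene moved the median of all genes to −0.01, and 5 of 6 members then had lower means, with Slc22a18 at −0.08 and Slc22a23 at −0.10. In FVB none of the 5 members passed, where 0.0248% of all genes passed for Het against WT (4, all lower; 1 of 7 higher when centred on the median gene), 0.0434% for Homo against WT (7) and 0% for Homo against Het (limma; 623 of 16140 genes at an unadjusted p under 0.05). Full separation of groups was met by 6.88%, 4.07% and 2.67% of all genes in those comparisons, and by 0, 1 and 0 members, the 1 being Slc22a8 in Homo tumors. FVB Het 4 held the lowest value of its group for Slc22a5, Slc22a8 and Slc22a23 and the highest for Slc22a30.

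Of 18 other Slc22 genes, 7 could be tested in the mixed set, 7 in FVB and 6 in the livers, and none passed in any comparison (limma). Of these, 2 of 6 separated the groups in the livers (17.4% of all genes): Slc22a15 by 0.49 ± 0.15 and Slc22a28 by −0.76 ± 0.30. Of 13 transporters of organic ions from other families, 12 had lower means in mixed Het than WT (median −0.52, and 12 as well without WT 2 and Het 5). The lowest adjusted p there was that of Abcb1a, a drug efflux pump, at 0.0824 with a difference of −3.78 ± 0.86. In FVB 5 of the 13 had higher and 8 lower means in Het than in WT (median −0.06), and 8 had higher and 5 lower means in Homo (median 0.12), or 7 and 6 in Het and 6 and 7 in Homo without WT 1 and WT 2. In Het 3 of 13 separated from WT (6.88% of all genes did), the uptake carriers Slco1b2 at −1.88 ± 0.57 and Slco1a4 at −1.81 ± 0.60 downwards and Slco2b1 at 0.56 ± 0.20 upwards. In Homo 3 of 13 did (4.07% of all genes), all downwards: Slco1b2 at −2.71 ± 0.57, Slco1a4 at −2.29 ± 0.60 and Slco1a1 at −3.02 ± 0.70. None of these passed. The 1 gene of that list to pass was Abcc3, an efflux pump of the blood-facing membrane, which rose by 1.49 ± 0.21 after ad-ARID1A (limma, adjusted p = 0.0265). Of 10 liver regulators, all had lower means in mixed Het (median −0.58; 9 without WT 2 and Het 5), among them Nr0b2, the bile acid-induced repressor SHP, at −2.55 ± 0.84, Nr1i2, the xenobiotic receptor PXR, at −1.18 ± 0.46, and Ppara, a fatty acid sensor, at −0.81 ± 0.37. In FVB Het 8 of 10 had higher means than WT (median 0.29; 8 as well without WT 1 and WT 2), with Ppara at 1.02 ± 0.31. In FVB Homo 9 of 10 had higher means than WT (median 0.24, and 9 as well without WT 1 and WT 2). After ad-ARID1A 9 of 10 regulators had higher means (median 0.20, all genes 0.09), and 7 of 10 when centred on the median gene. None of the regulators passed in any comparison (limma).

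Genes most like each member were taken as the 2 with the highest Pearson correlation of log2 values, each group centred on its own mean, over the 16 mixed tumors, which share library method and table. For Slc22a8 they were Lipc, hepatic lipase (r = 0.90), and Copz2, a vesicle coat subunit (r = 0.85), with 0.90 and 0.87 when WT 2 was left out and 0.80 and 0.72 over the 12 FVB tumors. Lipc ran from 60.4 to 130 CPM in mixed WT and from 43.6 to 118 in mixed Het. For Slc22a18 they were Hpn, a hepatocyte surface protease (0.96), and Col18a1, a basement membrane collagen (0.95), with 0.39 and 0.43 in FVB. For Slc22a30 they were Cyp7b1, an oxysterol hydroxylase (0.96), and Saa2, an acute phase protein (0.94), which were 0.82 and 0.64 without WT 2 and 0.66 and −0.10 in FVB. For Slc22a5, Mamdc2 had 0.85 and −0.08 in FVB. Slc22a23 was paired with Gm11963 and Mia3 (0.85 each), Slc22a7 with Apon and Arhgef26 (0.88 each) and Slc22a3 with Gm5445 (0.82) and Rab13 (0.79). These were the highest of 17552 genes in each case, so high values are built into the choice.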

How the data were processed

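Frozen tissue was extracted with Trizol and the miRNeasy kit, and libraries followed a Nugen protocol, per the labels' protocols. Tools given without versions in the submitters' processing notes are featureCounts, HISAT2, SAMtools and Trim Galore, with the build GRCm38 (mm10). The authors deposited log2 values in 3 tables, with 2 decimals. The FVB and Rag1-/- tables hold log2 CPM with values at or below 1 CPM listed at 0. The mixed table is named RPKM by the authors, but its deposited log2 values, taken as log2(CPM + 1), sum to 999553 to 999898 per library, so they were used as CPM.

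Each table was fitted separately with limma 3.58.1 in R 4.3.3 (variance trend, two-sided, Benjamini-Hochberg adjustment over all genes, threshold 0.05). The mixed table was tested as log2(CPM + 0.5) with a mean of at least 0.5 CPM (17552 genes). The FVB (16140) and Rag1-/- (14074) tables were tested as deposited, in 1 fit for the 3 FVB groups. The fits were tested on simulated data. Differences on both scales understate changes near the floor. Reads per library came from the 25 lowest distinct CPM values, which step by 1 read; 100% of values under 20 reads were within 0.1 of a whole number. Higher values are rounded too coarsely for a count test. The 3 ad-ARID1A columns were matched by title and number, since the samples' description names other columns. Alternatives were another pseudocount or filter, centring, array weights, a replicate block, and leaving out libraries. All 7 members were named; from other lists, genes that passed, otherwise up to 3 with the smallest p, plus the 2 most similar genes per member. The members and lists were chosen with earlier results of these data known. Some further genes of the lists (Airn, Cpt1a, Crat, Crot, Nr1i2, Slc22a6, Slc22a28, Slco2b1, Lipc, Lrat, S100a8, S100a9, Ltf, Retnlg) were named after their values were seen. Some genes that the rule names are not reported here.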

Additional observations from a re-analysis of the deposited data

Results flagged for a closer look

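Of 29 member and group pairs with 4 to 8 libraries, 4 held a library far from the others of its group by Dixon's ratio of gap to range on the log2 scale, where chance gives about 1 in 20 for untied values. Slc22a30 in mixed WT 2 was at 36 CPM, with the other 7 WT tumors at 0 to 1.87 CPM (gap 0.64 of the range). Slc22a30 was at 1.78 CPM in FVB Het 4 and at 1.71 CPM in FVB Homo 4, with the other 3 tumors of each group listed at 0. In those 2 pairs any value above the table's floor gives a gap equal to the whole range, so the chance rate does not apply to them. Slc22a23 in FVB Het 4 was at 41.9 CPM, with the other Het tumors at 60.1 to 62.2 (gap 0.91 of the range). Groups of 3 livers were not examined in this way.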

How the results depend on the processing

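Slc22a8 kept its direction in all comparisons under all alternatives run, and its call is bounded in the report. The count of genes passing in the mixed set (28) was 14 without a filter on low values, 101 with array weights, 75 with the replicate block and 16 without WT 2 and Het 5, where 0 members passed. For FVB Het against WT (4) it was 0 (limma; 1689 at an unadjusted p under 0.05) at a mean log2 CPM of at least 2, 1 with only the 2 groups fitted, 7 centred, 2287 with array weights, 0 with the replicate block (2491 unadjusted) and 1 without WT 1 and WT 2. Array weights passed 2 members there, Slc22a8 at 1.84 (adjusted p = 0.00549) and Slc22a30 at −1.90 (adjusted p = 0.0443). For FVB Homo against WT (7) it was 0 at the stricter filter (1117 unadjusted), 0 with only the 2 groups (1336 unadjusted), 21 with array weights, 1 with the replicate block and 3 without WT 1 and WT 2. The causes were not tested. With single libraries left out, the counts ran from 8 to 138 (mixed), 0 to 256 (FVB Het), 0 to 36 (FVB Homo against WT), 0 to 3 (Homo against Het) and 0 to 19 (livers, 45 with all), and members passing from 0 to 1 in the first 3. The counts ranged up to 138 without mixed Het 2 and up to 256 and 36 without FVB WT 4.

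Same-numbered samples had low correlations of −0.12 to 0.24 in the mixed set, −0.20 to 0.28 in FVB and −0.06 to 0.05 in the livers. In the mixed set 3 of 16 samples correlated best with their own number, and in the livers 2 of 6 did. In FVB it was 1 of 8 for Het with Homo, 4 of 8 for Het with WT and 5 of 8 for Homo with WT. These values cannot settle whether samples were paired, so the replicate block was kept as an alternative only. With it Slc22a8 in the mixed set had an adjusted p of 0.0335, no member changed its call, and 59 genes passed in the livers. Members that changed sign were small differences: mixed Slc22a3 (0.01 with array weights, 0.21 without WT 2 and Het 5, −0.29 to 0.08 with a library left out), FVB Homo against Het for Slc22a30 (0.04 centred, 0.15 with array weights, −0.21 to 0.19 with a library left out), Slc22a23 (−0.02 with array weights, −0.09 to 0.16) and Slc22a18 (−0.09 to 0.30), and the livers for Slc22a18 (−0.08 centred), Slc22a23 (−0.10 centred, −0.03 to 0.07) and Slc22a7 (−0.33 to 0.06). A few reads per library limit Slc22a3, Slc22a7 and Slc22a30 in mixed tumors.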
